A study of Mus musculus with 12 samples.

Results

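The genes described here were the prolyl hydroxylase Egln3 and 9 further genes of the response to low oxygen, followed in skeletal muscle and heart of mice that lack thymidine kinase 2. The 10 genes were Egln1, Egln2, Egln3, Hif1a, Epas1, Hif3a, Bnip3, Slc2a1, Vegfa and Cited4, out of 18820 genes that had a probe set annotated to a single symbol. All 10 were measured, through 11 probe sets, and the brightest probe set stood for each gene. Egln3 had been picked on these same arrays, by its opposite differences in both tissues, and Cited4 by its low signal in knockout muscle, so these values are given as a description with no test. The other genes were taken because they belong to the same pathway, with earlier results of these arrays known.

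Gene expression was measured on Affymetrix Mouse Gene 1.1 ST arrays, which carry short DNA probes along each transcript. The mutants were Tk2 knockout (KO, TK2-/-) pups and the controls were wild-type (WT, TK2+/+) pups, all C57BL/6 and 11 days old. RNA came from hind limb skeletal muscle and from heart, with 3 arrays for each of the 4 groups (KO muscle, WT muscle, KO heart and WT heart). The methods name 3 animals of each genotype, and no further allele or treatment is named for either genotype. TK2 is the mitochondrial enzyme that phosphorylates thymidine and deoxycytidine for mitochondrial DNA synthesis.

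Cells sense oxygen through the EGLN enzymes, also called PHD enzymes, which hydroxylate prolines of the alpha subunits of hypoxia-inducible factor (HIF) while oxygen is present. The hydroxylated subunit is bound by VHL, ubiquitinated and degraded. When oxygen falls, the subunit escapes, pairs with ARNT and binds DNA at the core A/GCGTG of target genes, among them genes for glucose uptake, glycolysis, vessel growth and mitophagy. EGLN3 is itself a HIF target in many cells, which makes it part of a feedback loop.

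The KO heart arrays were dimmer than the rest. Their mean signal was 147 to 168, against 227 to 243 on WT heart arrays, while KO muscle arrays had 225 to 246 and WT muscle arrays 202 to 252. Taken over all genes, the median log2 fold change of KO against WT was -0.28 for heart and -0.02 for muscle, and among the 4051 genes with a mean signal above 256 it was -0.68 in heart and 0.09 in muscle. The heart values of the 10 genes are therefore given as deposited and after quantile normalization within each tissue, which forces the arrays of a tissue onto a common distribution and brought the heart median to 0.00. Tk2 itself had a signal of 64.7, 44.1 and 48.7 in KO muscle, against 62.9, 68.5 and 63.1 in WT muscle, and of 30.1, 46.25 and 31.7 in KO heart, against 70.2, 73.6 and 81.8 in WT heart. Whether its probes lie inside the disrupted stretch of Tk2 is not known here, so these signals do not check the genotype labels. The tissue labels held: skeletal fibre markers summed to at least 49605 on every muscle array and to at most 7770 on every heart array, and cardiomyocyte markers to at least 27656 on every heart array and to at most 357 on every muscle array. Single cardiomyocyte markers were uneven: Myl7 was 13.3, 580 and 2641 in WT heart and 1966, 144 and 1882 in KO heart. Nppa was 705, 2826 and 5742 in WT heart and 5422, 3543 and 5157 in KO heart. WT heart replicate 1 and KO heart replicate 2 were lowest of their groups for both markers. Of the members, this held for Hif3a, Bnip3 and Slc2a1 as deposited. The part of this unevenness in the heart differences was not tested. Xist, which marks female animals, was above 100 on 2 KO muscle arrays, 1 WT muscle array, 3 KO heart arrays and 2 WT heart arrays. Sex was therefore not balanced, and within a genotype the muscle and heart arrays cannot all have come from the same 3 animals.

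Promoter sequence is shown for 4 genes whose signals went different ways: Egln3, Bnip3, Slc2a1 and Vegfa. Each is the 250 bases before the RefSeq start on GRCm38.p6, read in the direction of the gene, with HIF core motifs ACGTG and GCGTG in capitals. A core on the opposite strand appears as CACGT or CACGC. The Egln3 stretch is chr12:54203875-54204124 on the minus strand, the Bnip3 stretch chr7:138909507-138909756 on the minus strand, the Slc2a1 stretch chr4:119108495-119108744 on the plus strand, and the Vegfa stretch chr17:46032378-46032627 on the minus strand.
Egln3: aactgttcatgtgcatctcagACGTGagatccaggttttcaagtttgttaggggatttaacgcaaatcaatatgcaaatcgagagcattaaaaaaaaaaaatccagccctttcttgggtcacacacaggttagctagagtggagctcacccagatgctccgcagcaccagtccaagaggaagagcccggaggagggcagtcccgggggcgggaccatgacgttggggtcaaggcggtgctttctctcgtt
Bnip3: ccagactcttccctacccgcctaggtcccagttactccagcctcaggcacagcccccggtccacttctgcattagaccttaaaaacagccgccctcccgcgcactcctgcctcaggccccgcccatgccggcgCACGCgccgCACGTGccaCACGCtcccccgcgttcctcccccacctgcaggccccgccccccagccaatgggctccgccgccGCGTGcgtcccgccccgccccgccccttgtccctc
Slc2a1: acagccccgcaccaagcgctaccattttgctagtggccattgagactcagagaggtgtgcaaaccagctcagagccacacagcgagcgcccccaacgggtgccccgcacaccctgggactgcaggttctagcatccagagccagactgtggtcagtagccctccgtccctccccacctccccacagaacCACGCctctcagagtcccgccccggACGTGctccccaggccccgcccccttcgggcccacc
Vegfa: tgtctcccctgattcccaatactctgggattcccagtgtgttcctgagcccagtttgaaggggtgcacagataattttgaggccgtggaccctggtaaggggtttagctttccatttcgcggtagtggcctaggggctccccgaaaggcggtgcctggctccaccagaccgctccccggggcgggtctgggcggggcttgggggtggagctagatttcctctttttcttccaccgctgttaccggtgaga
Egln3 held 1 ACGTG, 229 to 225 bases before the start. Bnip3 held the palindrome CACGTG, in which ACGTG reads on both strands, and 3 GCGTG cores on either strand. Slc2a1 held 1 ACGTG at 36 to 32 bases and 1 GCGTG at 61 to 57 bases before the start. The Vegfa stretch held neither motif, and a further RefSeq start of Vegfa, inside the gene, held 1 of each. Of the 10 genes, 9 matched a promoter entry, with 11 entries in all, since Egln2 and Vegfa had a further start. On either strand, 7 of the 11 entries held ACGTG, 8 held GCGTG and 10 held either. Among all 32851 promoter entries, 16.6% held ACGTG, 28.2% GCGTG and 38.6% either. A match describes the letters only, and binding was not measured. Bases outside these 250 were not searched, so a stretch with no core does not show that a gene lacks one. The shares over all entries were not matched for GC content.

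Egln3 (12:54178981-54203874 on GRCm38.p6) was high in KO muscle and low in KO heart. Its signal was 3487, 3119.7 and 2499.9 in KO muscle, against 375, 772 and 739 in WT muscle, and the arrays of these groups did not overlap. In heart it was 287, 405 and 249 in KO animals, against 1262, 1819 and 1922 in WT animals, again with no overlap. The means were 3036 ± 499 in KO muscle, against 629 ± 221 in WT muscle, and 314 ± 81.6 in KO heart, against 1668 ± 355 in WT heart (SD, n = 3 each). On the log2(signal + 16) scale these differences were 2.30 in muscle, a 4.92-fold higher level in KO, and -2.36 in heart, a 5.12-fold lower level in KO. Ordered by mean, KO muscle stood first, then WT heart, WT muscle and KO heart. KO muscle, WT heart and WT muscle were separated from each other on every array, whereas the highest KO heart array lay above the lowest WT muscle array.

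The heart difference of Egln3 was smaller, with the same sign, once the arrays were put on a common distribution. After quantile normalization within tissue, its signal was 377, 495 and 358 in KO heart, against 992, 1578.5 and 1550.3 in WT heart, a difference of -1.69 on the log2 scale, and the muscle difference was 2.20. As deposited, 31 genes had a higher log2 fold change in muscle and 40 a lower one in heart, and after quantile normalization 34 and 59 did. The muscle difference exceeded the heart difference by 4.65 as deposited and by 3.89 after quantile normalization, and under each scaling 1 gene had a larger excess. These ranks describe the contrasts on which Egln3 was picked and are no test of it.

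**Figure D1:**
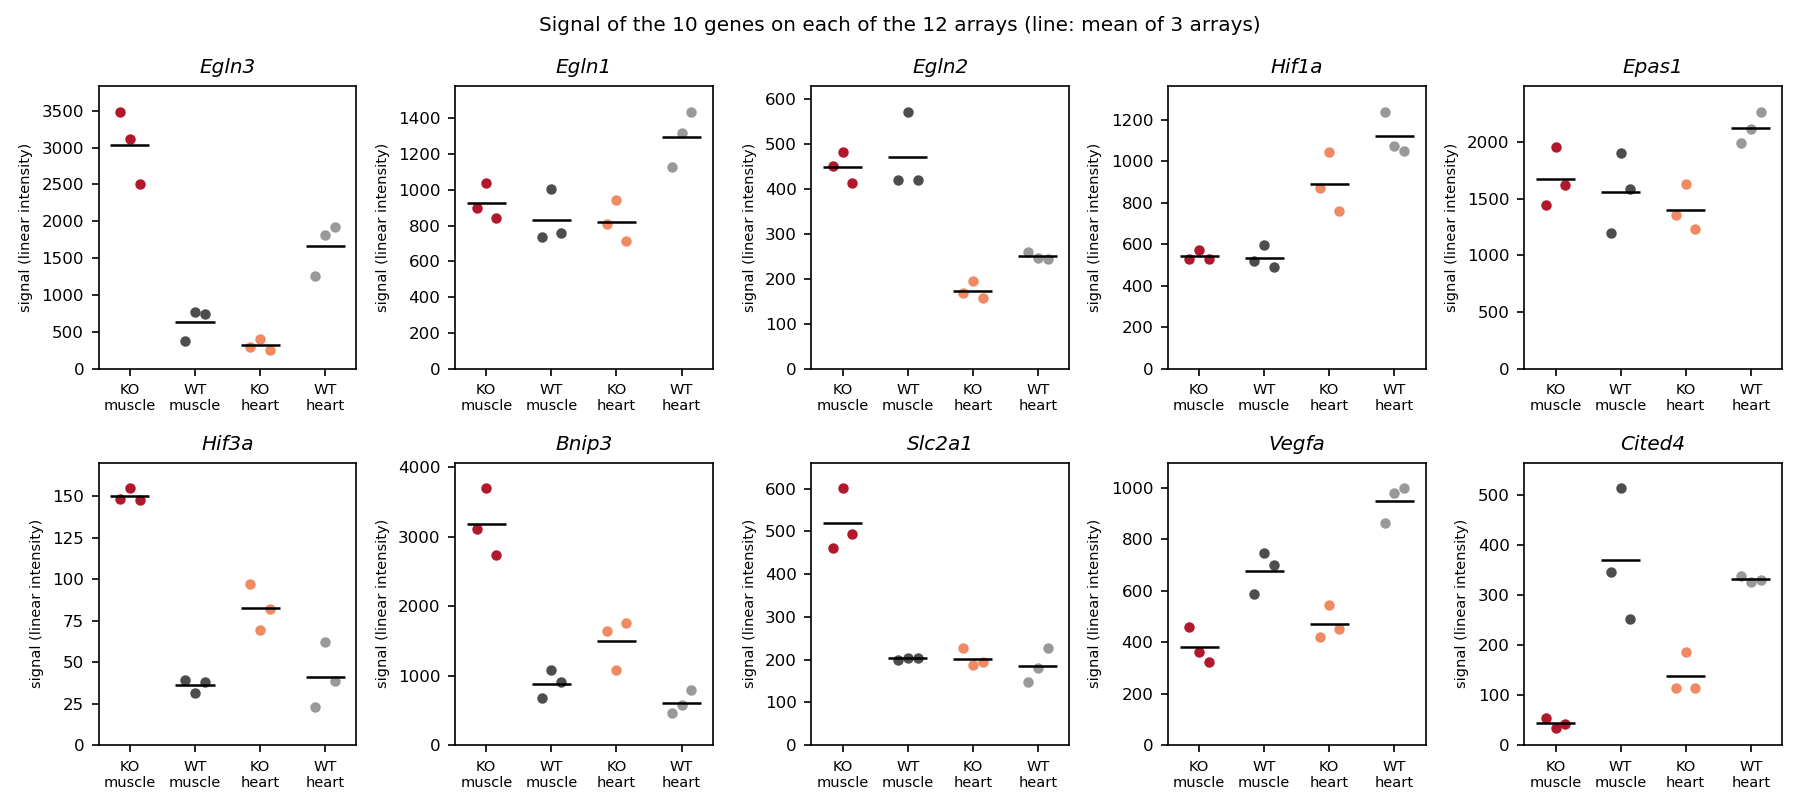
Signal (linear intensity, y axis) of each of the 10 genes on the 12 arrays as deposited, with 1 point per array and a line at the mean of 3 arrays. KO muscle lies above WT muscle without overlap for Egln3, Hif3a, Bnip3 and Slc2a1 and below it for Vegfa and Cited4, as deposited and after quantile normalization within tissue. Hif1a also lies below it in muscle after that normalization only. In heart, Hif3a and Bnip3 lie above and the other genes except Slc2a1 below without overlap as deposited, whereas after that normalization Egln2, Hif1a and Slc2a1 also lie above and Egln1 and Epas1 overlap.

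The other oxygen sensors had smaller fold changes in both tissues. Egln1 (8:124908587-124949254) encodes PHD2, the main HIF prolyl hydroxylase of most tissues. Its signal was 896, 1036 and 845 in KO muscle, against 735, 1004 and 757 in WT muscle, and the groups overlapped (log2 fold change 0.16 ± 0.14 (SE), adjusted p = 0.514). In heart it was 809.8, 943 and 711 in KO animals, against 1128, 1318 and 1437 in WT animals. That fall passed the test as deposited (-0.65 ± 0.14 (SE), adjusted p = 0.00108), but after quantile normalization within tissue the value was 0.03 (adjusted p = 0.858) and the arrays overlapped.

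Egln2 (7:27158658-27166802) encodes PHD1, a hydroxylase of the nucleus. Its signal was 451, 482 and 414 in KO muscle, against 420.03, 572 and 421 in WT muscle, with a log2 fold change of -0.06 ± 0.12 (SE) and an adjusted p of 0.835. In heart it was 167, 196 and 157 in KO animals, against 260.03, 247 and 244 in WT animals, lower by the test as deposited (-0.50 ± 0.12 (SE), adjusted p = 0.00287). Quantile normalization turned this value to 0.17 (adjusted p = 0.119), so the direction of Egln2 in KO heart depended on the scaling.

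The alpha subunits of HIF-1 and HIF-2 showed little difference in muscle. Hif1a (12:73901324-73947554), whose protein is controlled mainly by degradation, had a signal of 529, 573 and 526.5 in KO muscle, against 520.5, 595 and 490.5 in WT muscle (log2 fold change 0.02, 95% interval -0.23 to 0.28). Epas1 (17:86753864-86833410), which encodes HIF-2 alpha and is prominent in endothelium, had 1446, 1959 and 1618 in KO muscle, against 1194, 1905 and 1583 in WT muscle (0.11, 95% interval -0.22 to 0.45). Neither passed the test in muscle, with adjusted p = 0.937 for Hif1a and 0.714 for Epas1. After quantile normalization Hif1a in muscle was -0.10 (adjusted p = 0.449 with limma), although every KO array lay below every WT array. In heart, Hif1a was 869.6, 1043 and 758 in KO animals, against 1239, 1071 and 1051 in WT animals. Epas1 was 1354, 1629 and 1229 in KO heart, against 1989, 2118 and 2269 in WT heart. Both were lower by the test as deposited, Hif1a at -0.33 ± 0.12 (SE, adjusted p = 0.0299) and Epas1 at -0.60 ± 0.16 (SE, adjusted p = 0.00463). After quantile normalization, Hif1a was instead higher in KO heart (0.35, adjusted p = 0.00642), whereas Epas1 had a value of 0.00 (adjusted p = 0.998). The Hif1a call as deposited was also lost without WT heart replicate 1 (-0.26), without KO heart replicate 1 (-0.32) and without KO heart replicate 3 (-0.23).

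Hif3a (7:17030993-17062427) was the only alpha subunit gene that rose in both tissues, as deposited and after quantile normalization within tissue. HIF-3 alpha has splice forms that lack a transactivation domain and restrain HIF-1, and the gene is a HIF-1 target. Its signal was 149, 155 and 148 in KO muscle, against 39.3, 31.7 and 38.05 in WT muscle, a 3.19-fold rise (log2 fold change 1.67 ± 0.19 (SE), adjusted p = 1.53e-05). In heart it was 97.4, 69.15 and 82.2 in KO animals, against 22.7, 62.3 and 38.9 in WT animals. It rose there by 0.84 ± 0.19 (SE, adjusted p = 0.00125) as deposited and by 1.25 after quantile normalization (adjusted p = 0.000318). The arrays did not overlap in either tissue, although the highest WT heart array came close to the lowest KO heart array.

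Bnip3 (7:138890836-138909506), a HIF target of the outer mitochondrial membrane that serves as a mitophagy receptor, rose in both tissues. Its signal was 3114, 3699.5 and 2739.7 in KO muscle, against 673, 1079.7 and 903 in WT muscle, a 3.59-fold rise (1.84 ± 0.22 (SE), adjusted p = 2.48e-05). In heart it was 1649, 1084 and 1758 in KO animals, against 456, 583 and 798 in WT animals (1.27 ± 0.22 (SE), adjusted p = 0.000142). The rise in heart ran against the dimming of the KO heart arrays, and it was 1.91 after quantile normalization (adjusted p = 7.07e-05). As deposited 29 genes had a higher log2 fold change in heart, and after quantile normalization 24. A further Bnip3 probe set gave 2.02 ± 0.21 in muscle (adjusted p = 6.96e-06) and 1.08 ± 0.21 in heart (adjusted p = 0.000355, SE), and after quantile normalization 1.91 in muscle and 1.74 in heart (adjusted p = 0.000119).

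Slc2a1 (4:119108745-119137330), which encodes the basal glucose transporter GLUT1 and is a HIF-1 target, rose in muscle. Its signal was 462, 601 and 495 in KO muscle, against 199.8, 204 and 204 in WT muscle, a 2.44-fold rise (1.28 ± 0.14 (SE), adjusted p = 1.11e-05). All KO muscle arrays were at least 462, whereas the WT muscle arrays lay within a narrow band. In heart the groups overlapped, at 227, 187 and 193 in KO animals, against 147, 179.9 and 227 in WT animals (0.14 ± 0.14 (SE), adjusted p = 0.469). After quantile normalization the heart value was 0.80 (adjusted p = 0.00133), with 299.6, 228 and 282 in KO heart, against 113, 154 and 180.3 in WT heart.

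Vegfa (17:46016993-46032377), the main vessel growth factor and a classical HIF target, moved the other way from Bnip3 and Slc2a1 in muscle. Its signal was 459.7, 361 and 324 in KO muscle, against 588, 745 and 701 in WT muscle (-0.81 ± 0.14 (SE), adjusted p = 0.000525), and no KO array reached a WT array. In heart it was 421, 544 and 452 in KO animals, against 864.5, 979.9 and 999 in WT animals (-0.99 ± 0.14 (SE), adjusted p = 2.66e-05). The arrays did not overlap in heart under either scaling, but after quantile normalization the value was -0.31 and missed the threshold (adjusted p = 0.0705). The muscle fall was -0.90 after quantile normalization (adjusted p = 0.000133).

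Cited4 (4:120666563-120667820), whose protein binds the CBP and p300 coactivators and so competes with HIF-1 alpha for them, had its lowest signal in KO muscle. It was 53.5, 34.7 and 41.2 in KO muscle, against 346, 514 and 252 in WT muscle, a difference of -2.66 on the log2 scale that had chosen the gene. Under either scaling, 6 genes had a lower log2 fold change in muscle. In heart, which had not been used to choose it, Cited4 was 114, 187 and 114 in KO animals, against 338, 327 and 329.5 in WT animals. This fall passed the test as deposited (-1.21 ± 0.21 (SE), adjusted p = 0.00019) and after quantile normalization (-0.55, adjusted p = 0.0263). Ordered by mean, WT muscle and WT heart stood highest and overlapped, followed by KO heart and then KO muscle, each separated from its neighbour.

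In KO muscle 3 of the 8 tested genes were higher (Hif3a, Bnip3 and Slc2a1) and 1 lower (Vegfa), where 11.6% of all genes were called higher and 10.9% lower by the same limma test. The counts were also 3 and 1 after quantile normalization, where 13.8% of all genes were called higher and 14.8% lower. As deposited, 4 of these 8 genes had no overlap between KO and WT muscle arrays (Hif3a, Bnip3, Slc2a1 and Vegfa), beside 35.7% of all genes. After quantile normalization Hif1a did not overlap in muscle either. In KO heart 2 of the 9 tested genes were higher (Hif3a and Bnip3), where 1.99% of all genes were, and 6 were lower, where 49% of all genes were. The 6 lower genes were Egln1, Egln2, Hif1a, Epas1, Vegfa and Cited4, a share that has to be read against that background. The members all had a mean log2 value of at least 6. In a fit of the 10001 genes that did, 8099 were called lower and 221 higher in KO heart. After quantile normalization, 4 of the 9 were higher in KO heart (Hif1a, Hif3a, Bnip3 and Slc2a1), beside 13.9% of all genes, and 1 lower (Cited4), beside 17.9%. As deposited, the KO and WT heart arrays did not overlap for 8 of the 9, all but Slc2a1, beside 56.4% of all genes. In heart, Egln1 and Epas1 overlapped after quantile normalization, and Slc2a1 no longer did.

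**Figure D2:**
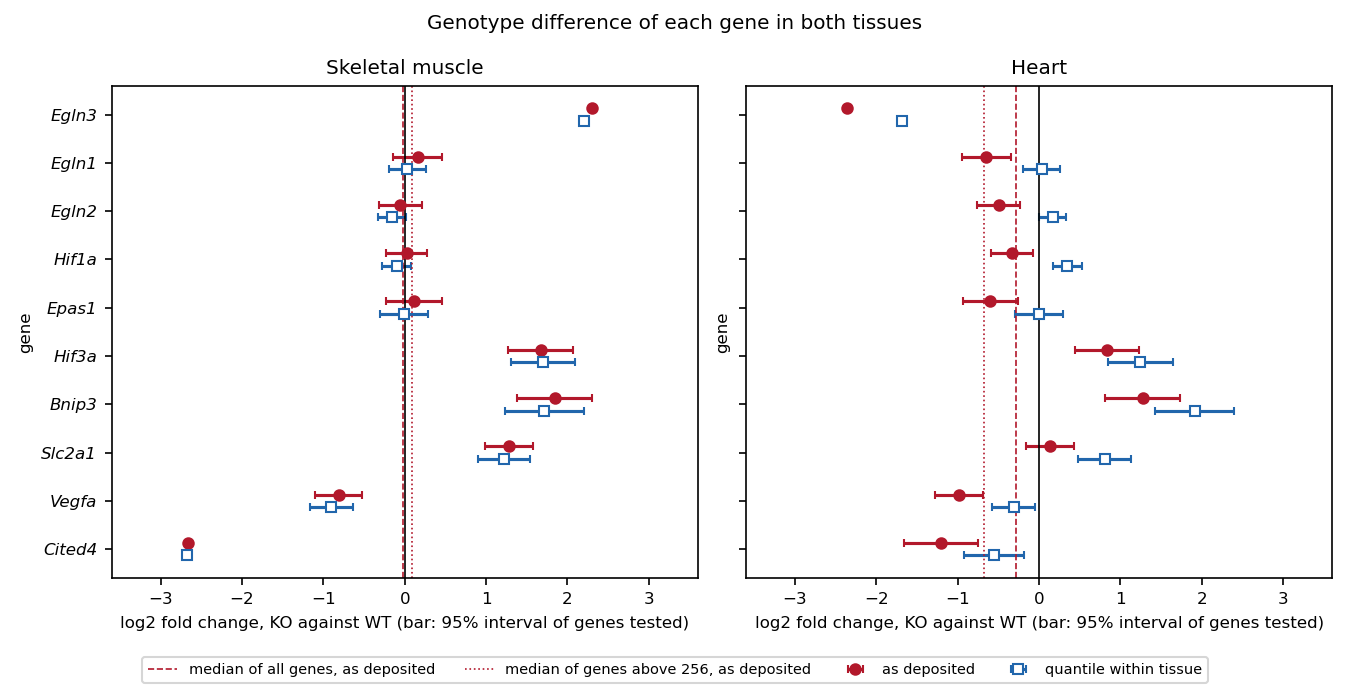
Log2 fold change of KO against WT (x axis) for each gene (y axis) in skeletal muscle (left) and heart (right), as deposited (filled circles) and after quantile normalization within tissue (open squares). Bars are 95% intervals of the genes tested, and Egln3 and, in muscle, Cited4 carry none because they were picked on these contrasts. The dashed and dotted lines mark the median of all genes and of genes with a mean signal above 256, which were -0.28 and -0.68 in heart, and the heart values of Egln1, Egln2, Hif1a and Epas1 change sign between the scalings.

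The difference between the genotype effects of the tissues was tested for 8 genes. As deposited, 4 had a higher effect in muscle than in heart: Slc2a1 (difference 1.15 ± 0.19, adjusted p = 0.000375), Hif3a (0.84 ± 0.26, adjusted p = 0.0175), Egln1 (0.81 ± 0.20, adjusted p = 0.00411) and Epas1 (0.71 ± 0.23, adjusted p = 0.0176; SE in each case). This compares with 41.3% of all genes called in that direction and 1.39% in the other, and 0 of the 8 genes had a negative difference. Among the 10001 genes with a mean log2 value of at least 6, 7546 were called in that direction and 128 in the other. After quantile normalization none of the 4 passed, and 2 genes were called lower in muscle than in heart, Hif1a (-0.45, adjusted p = 0.0304) and Vegfa (-0.59, adjusted p = 0.0477), beside 6% of all genes higher and 4.54% lower. The call of Epas1 was also lost without KO muscle replicate 2 (0.60) and without KO heart replicate 3 (0.62). Egln2 (0.44, adjusted p = 0.0535) passed without WT muscle replicate 2 (0.58), KO muscle replicate 3 (0.50) or KO heart replicate 2 (0.52), and Hif1a (0.36, adjusted p = 0.112) without KO heart replicate 2 (0.47). For Bnip3 the muscle effect exceeded the heart effect by 0.57 ± 0.31 (SE, adjusted p = 0.162) as deposited, with a 95% interval of -0.09 to 1.23. Its further probe set gave 0.94 (adjusted p = 0.0165), so the probe sets of Bnip3 fell on different sides of the threshold.

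Between the WT tissues, 1 of the 8 tested genes was higher in muscle than in heart, where 30.6% of all genes were, and 4 were lower, where 18.4% were. Egln2 was the higher gene, with a mean of 471 ± 87.6 in WT muscle, against 250.3 ± 8.55 in WT heart (0.86 ± 0.12 (SE), adjusted p = 5.38e-05). Hif1a had the largest difference of the 8, with 535 ± 53.7 in WT muscle, against 1120 ± 103 in WT heart (-1.04 ± 0.12 (SE), adjusted p = 5.83e-06). Egln1 (-0.64, adjusted p = 0.0021), Vegfa (-0.48, adjusted p = 0.0102) and Epas1 (-0.47, adjusted p = 0.0254) were also lower in WT muscle. Quantile normalization within tissue does not put muscle and heart on a common scale, so the same step over all 12 arrays was used here. Under it the call of Epas1 was lost (-0.37, adjusted p = 0.0511), and that of Vegfa held (-0.38, adjusted p = 0.0238). Both calls were lost without WT muscle replicate 1 (-0.38 for Vegfa and -0.29 for Epas1), and that of Epas1 also without WT heart replicate 3 (-0.42). Bnip3 (0.53, adjusted p = 0.0548) passed under quantile normalization over 12 arrays (0.64, adjusted p = 0.0373) and without WT muscle replicate 1 (0.71), WT heart replicate 3 (0.74) or KO heart replicate 2 (0.53). Egln3 had 629 ± 221 in WT muscle, against 1668 ± 355 in WT heart (SD, n = 3 each), a difference of -1.43 on the log2 scale that is given as a description.

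The rest of the pathway was read from lists of regulators, targets and vessel factors. Among 16 further regulators of HIF, 6 rose, 1 fell and 9 did not pass the test in KO muscle, with a median log2 fold change of -0.06. Over all genes 11.6% were called higher and 10.9% lower in KO muscle as deposited, and 13.8% and 14.8% after quantile normalization. The muscle counts of this and the next lists are to be read against these shares. Cited2, which like Cited4 competes with HIF-1 alpha for CBP and p300, rose 1.64 ± 0.15 (SE, adjusted p = 3.03e-06), with 1638, 1735 and 1308 in KO muscle, against 485, 518 and 457 in WT muscle. Cited1, a further member of that family, was the regulator that fell as deposited (-0.47, adjusted p = 0.0282). After quantile normalization 6 regulators rose and 4 fell in KO muscle, with Rbx1 (-0.25), Elob (-0.38) and Eloc (-0.27) lower beside Cited1 (-0.41). Arnt, the partner of the alpha subunits, rose by 0.88 ± 0.13 (SE, adjusted p = 0.000159), and the coactivator genes Crebbp (0.59) and Ep300 (0.54) rose with it. In KO heart 1 of the 16 regulators rose and 11 fell, with a median of -0.51, and after quantile normalization 6 rose and 1 fell, with a median of 0.07. Over all genes the shares in KO heart were 1.99% higher and 49% lower as deposited, and 13.9% and 17.9% after quantile normalization, against which this and the next lists are to be read. Cited2 was the gene that rose in heart as deposited, by 0.94 ± 0.15 (SE, adjusted p = 8.54e-05) and by 1.62 after quantile normalization, with 892, 673 and 710.1 in KO heart, against 484, 320.3 and 366 in WT heart.

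HIF targets of glucose use were split in muscle. Of 18 measured, 5 rose and 1 fell in KO muscle, beside 11.6% and 10.9% of all genes, with a median of 0.07. After quantile normalization 5 rose and 5 fell, beside 13.8% and 14.8%. Pfkfb3, which makes the activator of phosphofructokinase, rose by 1.12 ± 0.25 (SE, adjusted p = 0.00412), and Gbe1, the glycogen branching enzyme, by 0.83. The insulin-regulated transporter Slc2a4 (0.61), the glycogen synthase Gys1 (0.56) and the transporter Slc2a3 (0.48) rose as well, whereas Pfkfb4 fell (-0.64). In KO heart 15 of the 18 fell and 1 rose, beside 49% and 1.99% of all genes, with a median of -0.89 (-0.68 for all genes with a mean signal above 256), and after quantile normalization 8 fell and 2 rose, beside 17.9% and 13.9%, with a median of -0.33. The liver-type phosphofructokinase Pfkl (-1.72 as deposited, -1.06 after quantile normalization) and hexokinase Hk2 (-1.62 and -0.94) fell most, and Pfkfb3 rose (0.84 and 1.36).

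Of 30 further HIF targets, 14 rose and 6 fell in KO muscle, beside 11.6% and 10.9% of all genes, with a median of 0.03. The counts were the same after quantile normalization, beside 13.8% and 14.8%. Ddit4, an inhibitor of mTORC1 signalling, rose by 3.03 ± 0.18 (SE, adjusted p = 4.42e-08), with 996.5, 1571 and 1011 in KO muscle, against 141, 109 and 137 in WT muscle. The haem oxygenase Hmox1 rose by 2.04, Igfbp3, which binds insulin-like growth factors, by 1.70, and the nuclear receptor gene Rora by 1.46. Edn1, the endothelin precursor, rose by 1.34 and Angptl4, an inhibitor of lipoprotein lipase, by 1.24. The falls included Ak4 (-0.81), an adenylate kinase of mitochondria, and P4ha1 (-0.71), a collagen prolyl hydroxylase. Several of these genes are also targets of p53 or of other pathways. Ddit4, Igfbp3 and Angptl4 were discussed by the study for these arrays, Angptl4 as a PPAR target, so their direction is not independent evidence. In KO heart 3 rose, 15 fell and the median was -0.30, near the -0.28 of all genes, while after quantile normalization there were 10 rises, 9 falls and a median of 0.01. Igfbp3, Ddit4 and Mxi1 were the 3 that rose in heart as deposited, by 1.42, 0.87 and 0.46, and after quantile normalization their values were 2.08, 1.55 and 1.14. Tfrc, the transferrin receptor, had the lowest value in heart (-2.86, and -2.24 after quantile normalization), with 279.8, 766 and 55.2 in KO heart, against 1709, 1945 and 1849.9 in WT heart.

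The VEGF receptors moved partly with Vegfa. Of 9 further genes of the family, 2 rose and 3 fell in KO muscle, beside 11.6% and 10.9% of all genes, with a median of -0.10. After quantile normalization 3 rose and 3 fell, beside 13.8% and 14.8%, with Pgf added to the rises (0.38, adjusted p = 0.0381 with limma). The co-receptor Nrp2 (-0.59 ± 0.13 (SE), adjusted p = 0.00507), the main signalling receptor Kdr (-0.58 ± 0.15 (SE), adjusted p = 0.00949) and Nrp1 (-0.37) fell, whereas the lymphatic factor Vegfd (1.14) and the decoy receptor Flt1 (0.52) rose. Kdr had 451, 380.5 and 386 in KO muscle, against 546, 657 and 644 in WT muscle. In KO heart 7 fell, beside 49% of all genes, with a median of -0.78 and Pgf (0.09, adjusted p = 0.596) as the only gene above 0. After quantile normalization 4 fell and 2 rose in KO heart, beside 17.9% and 13.9%, and the rises were Flt1 and Pgf (0.39, adjusted p = 0.0308 with limma). Kdr (-1.57 as deposited, -0.90 after quantile normalization) and Nrp2 (-1.84 and -1.25) fell under both scalings, whereas Flt1 was lower as deposited (-0.38) and higher after quantile normalization (0.29), past the threshold under both. Kdr and Flt1 are receptors of endothelial cells. Of 8 endothelial markers 0 passed limma's test in KO muscle (1 fell at an unadjusted p under 0.05), where their summed signal was 5383 to 6031, against 5774 to 7170.2 in WT muscle. After quantile normalization 2 of them fell in KO muscle, Cdh5 (-0.38, adjusted p = 0.00174) and Emcn (-0.34, adjusted p = 0.0132). In heart all 8 fell as deposited and 3 after quantile normalization, and their sum was 4199 to 5344 in KO heart, against 7562 to 9283 in WT heart. In whole tissue, fewer cells of a type and less RNA per cell cannot be told apart.

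**Figure D3:**
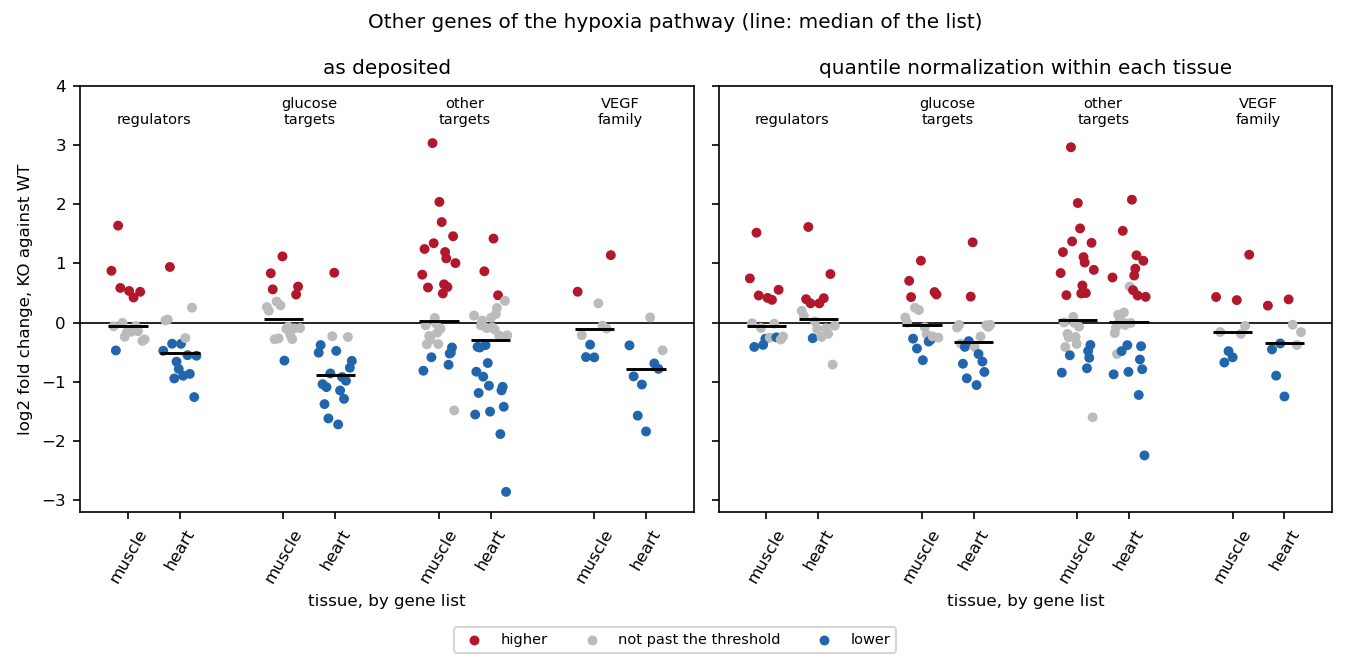
Log2 fold change of KO against WT (y axis) of the genes of the 4 pathway lists in muscle and heart (x axis), as deposited (left) and after quantile normalization within tissue (right), with red for genes that rose, blue for genes that fell, grey for the rest and a line at each median. The medians in muscle lie between -0.10 and 0.07 as deposited, while those in heart lie between -0.89 and -0.30 as deposited and nearer 0 after normalization.

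Some markers of other cells also moved with the genotype. Over all genes 11.6% were called higher and 10.9% lower in KO muscle as deposited, and 1.99% and 49% in KO heart. After quantile normalization these shares were 13.8% and 14.8% in muscle and 13.9% and 17.9% in heart. Adipocyte markers summed to 1058 to 2128 in KO muscle, against 417 to 814 in WT muscle, with 4 of 5 higher and 1 lower as deposited. After quantile normalization 3 were higher and 1 lower, and Plin1 missed the threshold (0.78, adjusted p = 0.0657 with limma). In heart the adipocyte markers summed to 34.6 to 67.4 in KO animals, against 28.6 to 66.1 in WT animals. Fibroblast markers summed to 6869 to 8410.2 in KO muscle, against 11783 to 13521 in WT muscle. Under either scaling 4 of these 6 markers were lower and 1 higher in KO muscle. In heart they summed to 4833 to 5258 in KO animals, against 8189 to 10019 in WT animals, with all 6 lower as deposited and 4 after quantile normalization. Leucocyte markers summed to 1011 to 1159.7 in KO muscle, against 843 to 1435 in WT muscle, where Ptprc was 419 on replicate 1, against 104 and 98.2. Under either scaling 1 of 6 was higher in KO muscle, Cd68 (0.94 as deposited, 0.93 after quantile normalization), and 0 were lower. In heart the leucocyte markers summed to 500.2 to 593 in KO animals, against 1346 to 1716 in WT animals. There all 6 were lower as deposited and 5 after quantile normalization. The 5 pericyte markers summed to 4841 to 4953 in KO muscle, against 4282 to 5539 in WT muscle, and to 4121 to 5200.2 in KO heart, against 5810 to 6708 in WT heart. In KO muscle 0 of the 5 passed as deposited, and 2 were lower after quantile normalization. In KO heart all 5 were lower as deposited, whereas after quantile normalization 2 were higher and 1 lower, with a median of 0.10. The 4 erythroid markers measured summed to 365 to 777 in KO muscle, against 216 to 489 in WT muscle, and to 451 to 757 in KO heart, against 1172 to 1960.3 in WT heart. Of these 4, 0 passed in KO muscle under either scaling, and in KO heart 3 were lower as deposited and 2 after quantile normalization. Of the Schwann cell markers 1 of 4 was measured, and it did not pass the test in either tissue. The part of these cells in the changes of the 10 genes was not tested.

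The profile of Egln3 over the 12 arrays was set beside those of other genes. Likeness was measured as the root mean square difference of log2 values, each gene centred on its own mean, among 10000 genes with a mean log2 value of at least 6. The spread of Egln3 about its own mean was 1.29 on that scale. The nearest genes were Thbs1 (0.61), the matrix glycoprotein thrombospondin-1, Serpinb6a (0.71), a protease inhibitor, Atf3 (0.72), a stress-induced transcription factor, Spryd7 (0.72) and Ube4a (0.73), a ubiquitin ligase. Thbs1 had a mean of 789 ± 136 in KO muscle, against 344 ± 29.9 in WT muscle, and 239.7 ± 72.9 in KO heart, against 704 ± 152 in WT heart (SD, n = 3 each). Thbs1 and Atf3 were also among the 5 nearest genes after quantile normalization, joined there by Arid5a, Cd68 and Rhou. Among the other 9 members Slc2a1 was nearest to Egln3 (1.01) and Cited4 farthest (1.99).

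**Figure D4:**
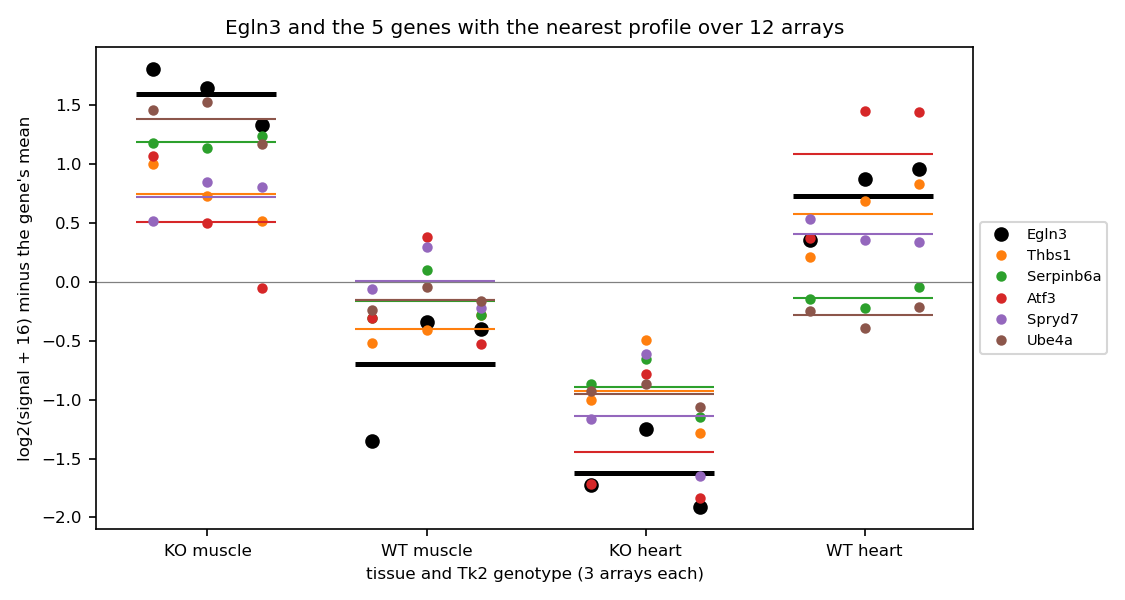
Log2(signal + 16) of Egln3 (large black points) and of the 5 genes with the nearest profile, each minus its own mean over the 12 arrays (y axis), by tissue and genotype (x axis), with lines at group means. All 6 genes have a higher mean in KO than in WT muscle and a lower mean in KO than in WT heart, with distances from Egln3 of 0.61 to 0.73, and the profiles are a description of values as deposited.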

How the data were processed

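The deposited table held linear signal intensity for 35556 probe sets on 12 arrays. Expression Console (Affymetrix) and PLIER are listed in the submitters' processing notes, and by the methods the authors normalized these intensity values, with versions and background settings not given in the sources used here. Probe sets with 1 symbol in the platform annotation numbered 21218, 12457 had no symbol and 1881 had several. The brightest probe set stood for each of 18820 genes. Group means of log2(signal + 16) were fitted with limma 3.58.1 (R 4.3.3) over all 12 arrays, with 2-sided tests adjusted by Benjamini-Hochberg over 18820 genes and a threshold of 0.05. The offset understates changes of dim genes, and n = 3 arrays per group limits the precision. The labels call the arrays biological replicates. The members and the gene lists were chosen with earlier results of these data known. Named genes were the 10 members, the 5 genes nearest to Egln3, and up to 6 genes with the largest changes of each pathway list, beside Tk2. Ak4, P4ha1, Cdh5 and Emcn in muscle, Flt1 in heart, Xist and the members of counts of 5 or fewer were named after their values were seen. The script was tested on simulated data. Other scalings, offsets, filters and fits, single arrays left out, and Xist as a covariate, added after seeing the data, were tried. Motifs were searched in RefSeq promoters of GRCm38.p6. All 12 columns of the table matched a sample.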

Additional observations from a re-analysis of the deposited data

Results flagged for a closer look

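Of the 8 genes tested for a different genotype effect in the tissues, 4 passed as deposited, each with a higher effect in muscle than in heart. The difference was 1.15 for Slc2a1, 0.84 for Hif3a, 0.81 for Egln1 and 0.71 for Epas1 on the log2 scale, where 41.3% of all genes passed in that direction. Among the 10001 genes with a mean log2 value of at least 6, 7546 passed in that direction. After quantile normalization within tissue it was 0.41 for Slc2a1 (adjusted p = 0.239), 0.45 for Hif3a (adjusted p = 0.304), 0.00 for Egln1 (adjusted p = 0.994) and -0.01 for Epas1 (adjusted p = 0.983), with limma in each case. The KO heart arrays were dimmer as a whole (mean signal 147 to 168, against 227 to 243 on WT heart arrays). The part of this dimness in the 4 differences was not tested.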

How the results depend on the processing

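In muscle, 3 members were called higher and 1 lower under every alternative and with any array left out, except that the methods' t-test called 0 lower (Vegfa missed the threshold, and was the 1 called lower at an unadjusted p under 0.05). The paper's limits were 2-fold or more and p under 0.05 before adjustment. With them that test called 3 of 8 members higher and 0 lower in muscle, and 1 of 9 higher and 1 lower in heart. The same limits called 312 higher and 329 lower in muscle among all 18820 genes, and 38 higher and 1770 lower in heart. In heart, quantile normalization within tissue or over 12 arrays, upper-quartile scaling and cyclic loess each called 4 members higher and 1 lower, and the methods' t-test 1 higher. For the difference between tissues these 4 scalings called 0 members higher with limma (0 at an unadjusted p under 0.05, and 1 under upper-quartile scaling), and quantile normalization called 2 lower within tissue and 1 over 12 arrays. Between WT tissues, 3 members were higher and 2 lower under quantile normalization within tissue, which does not put the tissues on a common scale, and under cyclic loess, and 2 were higher under quantile normalization over 12 arrays and with dim genes left out. Leaving out single arrays gave 1 to 2 higher and 2 to 4 lower there. Over all genes, upper-quartile scaling called 6764 higher and 2747 lower in heart. With the replicate block, 3 and 1 members were called in muscle, 2 and 6 in heart, and 5 and 0 for the difference, where Egln2 was added. Deviations of same-numbered KO and WT arrays correlated at -0.03 to 0.13 in muscle and -0.19 to -0.05 in heart, so the numbers were not taken as pairs. The fit with the number as an animal shared by both tissues is void, since Xist was above 100 in heart but not in muscle for KO replicate 2 and WT replicate 1. With Xist as a covariate, added after seeing the data, they were 3 and 1, 2 and 5, and 4 and 0.

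A change of sign against the deposited values occurred 52 times among the single members, of which 7 passed the threshold with the new sign, for Hif1a and Vegfa. In order, quantile normalization within tissue, quantile normalization over 12 arrays and cyclic loess gave -0.098, -0.097 and -0.067 for Hif1a and -0.0084, -0.010 and -0.017 for Epas1 in muscle. With upper-quartile scaling placed before cyclic loess, the heart values were 0.17, 0.17, 0.15 and 0.18 for Egln2 and 0.35, 0.35, 0.35 and 0.32 for Hif1a. Egln1 in heart had 0.031, 0.026 and 0.032 under quantile normalization within tissue, over 12 arrays and upper-quartile scaling, and Epas1 0.00076, 0.085 and 0.010 under quantile normalization within tissue, upper-quartile scaling and cyclic loess. Differences between the tissues under the same 4 scalings were -0.32, -0.33, -0.21 and -0.32 for Egln2, -0.45, -0.44, -0.33 and -0.38 for Hif1a, -0.59, -0.58, -0.50 and -0.59 for Vegfa, and -0.19, -0.15, -0.12 and -0.22 for Bnip3. For Epas1 they were -0.0092, -0.0092 and -0.027 under both quantile normalizations and cyclic loess. Array weights gave 0.0081 for Egln2 in muscle and 0.14 for Hif3a between WT tissues, cyclic loess 0.14 for Hif3a there too, and median centring -0.12 for Slc2a1 and -0.16 for Cited4 between WT tissues. Leaving out single arrays gave -0.13 to 0.088 for Egln2, -0.036 to 0.099 for Hif1a and -0.064 to 0.27 for Epas1 in muscle, -0.0040 to 0.28 for Slc2a1 in heart, and -0.33 to 0.18 for Hif3a and -0.16 to 0.33 for Cited4 between WT tissues. The causes were not tested. Hif3a and Cited4 were dim in some groups, where the offset weighs most.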
